A study of Mus musculus with 7 samples.

Results

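The genes described are the receptors for serotonin, acetylcholine, noradrenaline and adrenaline, and a subset of those for dopamine, in mouse cerebral cortex. They were picked by symbol from a table of 56941 rows: the Htr1 to Htr7 genes of serotonin, the muscarinic Chrm genes and the nicotinic Chrna, Chrnb, Chrnd, Chrne and Chrng genes of acetylcholine, the Adra1, Adra2 and Adrb genes of noradrenaline and adrenaline, and Drd3, Drd4 and Drd5 of dopamine. This gave 47 genes, of which 14 are serotonergic, 5 muscarinic, 16 nicotinic, 9 adrenergic and 3 dopaminergic. Another 1 row that the pattern matches, the antisense transcript Chrna1os, was left out because its symbol ends in os. RNA was sequenced from the cortex of mice at postnatal day 7, in 3 samples of mice with the P213L variant of the X-linked gene Hnrnph2 and 4 samples of wild-type (WT) mice. Hnrnph2 encodes an RNA-binding protein that acts in splicing. The labels give no further allele, treatment, strain, sex or zygosity, and do not say whether each sample is a separate animal, so the tests speak of variation among these samples, which may be technical.

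Serotonin, noradrenaline, dopamine and acetylcholine reach the cortex mainly through axons of neurons whose cell bodies lie in the brainstem and basal forebrain. Cortical neurons and glia respond through receptors that they make themselves, while most transcripts for making these transmitters belong to cells elsewhere. The samples also held markers of striatal neurons and choroid plexus, given below. A receptor transcript measured here therefore need not come from a cortical cell. Most of the receptors are coupled to G proteins: Gs raises cyclic AMP, Gi lowers it and opens potassium channels, and Gq releases calcium from stores. The nicotinic receptors and the receptors built from Htr3a and Htr3b are instead ion channels of several subunits around a pore. In the early postnatal cortex these transmitters are known to act on circuit formation as well as on excitability.

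Values are in transcripts per 1000000 transcripts (TPM), which divide reads by gene length, so levels can be compared between genes. Depth, estimated from the smallest steps of the values, was 57.2 M counted units in WT replicate 3 and 66.4 to 79.4 M in the other 6 libraries (M, 1000000). WT replicate 3 stood apart: its highest correlation with another library was 0.949, against 0.990 to 0.992 for the best partner of each of the other 6. Markers of excitatory neurons summed to 1309 to 1435 TPM in P213L, to 1387 to 1466 TPM in WT replicates 1, 2 and 4 and to 839.8 TPM in WT replicate 3, and markers of interneurons to 2039.5 to 2174 TPM in P213L, 2042 to 2220.5 TPM in those 3 WT libraries and 3229 TPM in WT replicate 3. Within that list the peptide genes Sst, Cck and Npy were highest in WT replicate 3, at 1516, 693 and 598 TPM, while Lhx6, Reln, Adarb2, Prox1, Slc32a1 and Gad2 were lowest there. Of the excitatory markers, Slc17a7 differed most in TPM, at 248 TPM in WT replicate 3 and 613 to 707 TPM in the other WT libraries. Neurod6 and Foxp2 lay within the other WT libraries there, and the rest of the excitatory list was lowest in WT replicate 3. The part of these marker levels in the receptor values was not tested. Where leaving out WT replicate 3 changes a printed fold change by much or turns its sign, both values are given. Means and SDs of WT include WT replicate 3. Hnrnph2 itself stood at 77.7 to 88.1 TPM in P213L and 78.9 to 90.9 TPM in WT, and the variant alters the protein, so its transcript level is no test of the genotypes.

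The 47 receptor genes summed to 513, 508 and 544 TPM in the 3 P213L samples and to 537, 528, 328 and 509 TPM in WT replicates 1 to 4. The P213L samples lay close to 3 of the WT samples, and WT replicate 3 lay below all. By class the muscarinic genes held most in all samples except WT replicate 3, where the adrenergic and serotonergic genes held more, with 30.0 to 31.0% of the sum in P213L and 24.1 to 31.6% in WT. The adrenergic genes held 24.0 to 26.0% in P213L and 23.6 to 29.9% in WT, the serotonergic genes 22.7 to 24.3% and 22.8 to 27.3%, and the nicotinic genes 20.6 to 21.9% and 18.3 to 20.8%. Dopamine receptors of the set held 0.328 to 0.510% in P213L and 0.383 to 0.481% in WT. In these bulk samples, fewer cells of a type and less RNA per cell cannot be told apart.

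**Figure D1:**
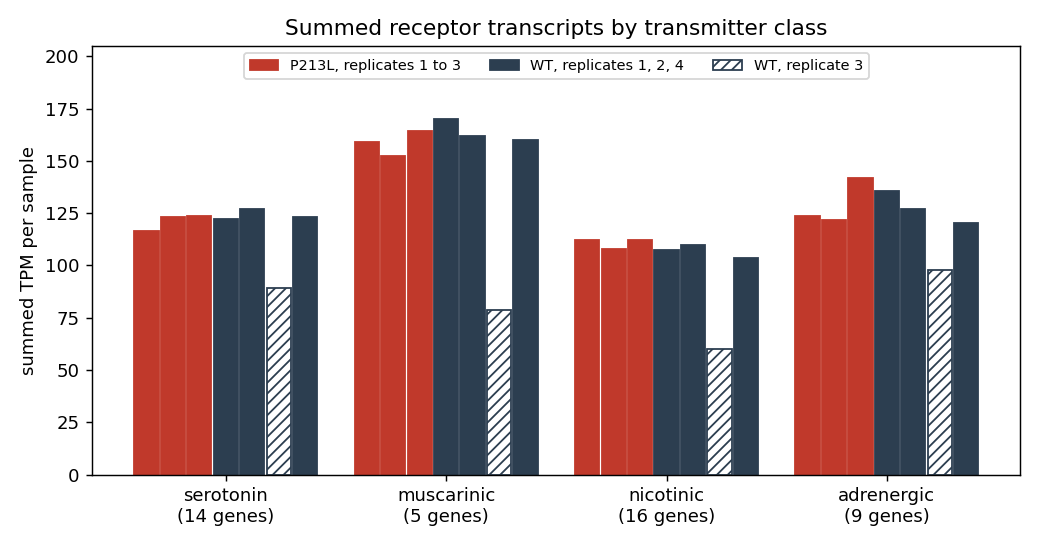
Summed TPM (vertical axis) of the receptor genes of 4 transmitter classes, 1 bar per sample, with P213L in red, WT replicates 1, 2 and 4 in dark blue and WT replicate 3 hatched. The muscarinic bar of WT replicate 3 is at 78.9 TPM, against 152 to 170.0 TPM in the other 6 samples, and it is the lowest bar in each class.

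Gene by gene, 32 of the 47 members had a mean of at least 1 TPM and were tested with all 17582 such rows of the table in limma on log2(TPM + 0.5). None passed an adjusted p of 0.05 (0% of all rows passed either), and the smallest adjusted p of a member was 0.827. No member had an unadjusted p below 0.05 either (0 of 32), where 3.74% of all rows did, 2.36% higher and 1.38% lower in P213L. With median-of-ratios scaling those shares were 2.11% higher and 1.96% lower. The log2 fold change of P213L over WT was positive for 27 members and negative for 5, with a median of 0.16, beside a median of 0.07 and 63.4% positive over all rows tested. Without WT replicate 3 the members split into 15 positive and 17 negative, with a median of -0.01, beside a median of -0.002 over all rows. In that fit 0 members and 0% of rows passed the adjusted threshold, while 2 members, Chrna3 on the higher and Htr1f on the lower side, had an unadjusted p below 0.05, where 8.69% of all rows did, 4.7% higher and 3.99% lower. With median-of-ratios scaling of all samples the members split into 20 positive and 12 negative, and 49.1% of all rows were positive. With sample weights in limma, 7 members (Adra2c, Chrm3, Chrm4, Chrnb2, Htr1f, Htr2a and Htr6) and 22.6% of all rows passed an adjusted p of 0.05, in a fit that gave P213L replicate 3 a weight of 6.90, WT replicate 4 a weight of 5.24 and WT replicate 3 a weight of 0.0431.

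All 3 P213L values lay above all 4 WT values for 4 of the 32 tested members (12.5%), where 5.94% of all rows did so, and for no member did they lie below (2.75% of all rows). These 4 were the nicotinic subunits Chrnb2, Chrna3 and Chrnb1 and the serotonin receptor Htr5a. Without WT replicate 3 the same 4 stayed separated, against 7.33% of all rows, and 3 more members, Chrm1, Chrm3 and Htr1f, had all P213L values below the remaining WT values (9.38% of tested members, against 6.89% of all rows). With median-of-ratios scaling the separated members were Chrnb2 and Chrna3 (6.25%, against 4.43% of all rows), and none was separated on the lower side (4.06% of all rows).

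**Figure D2:**
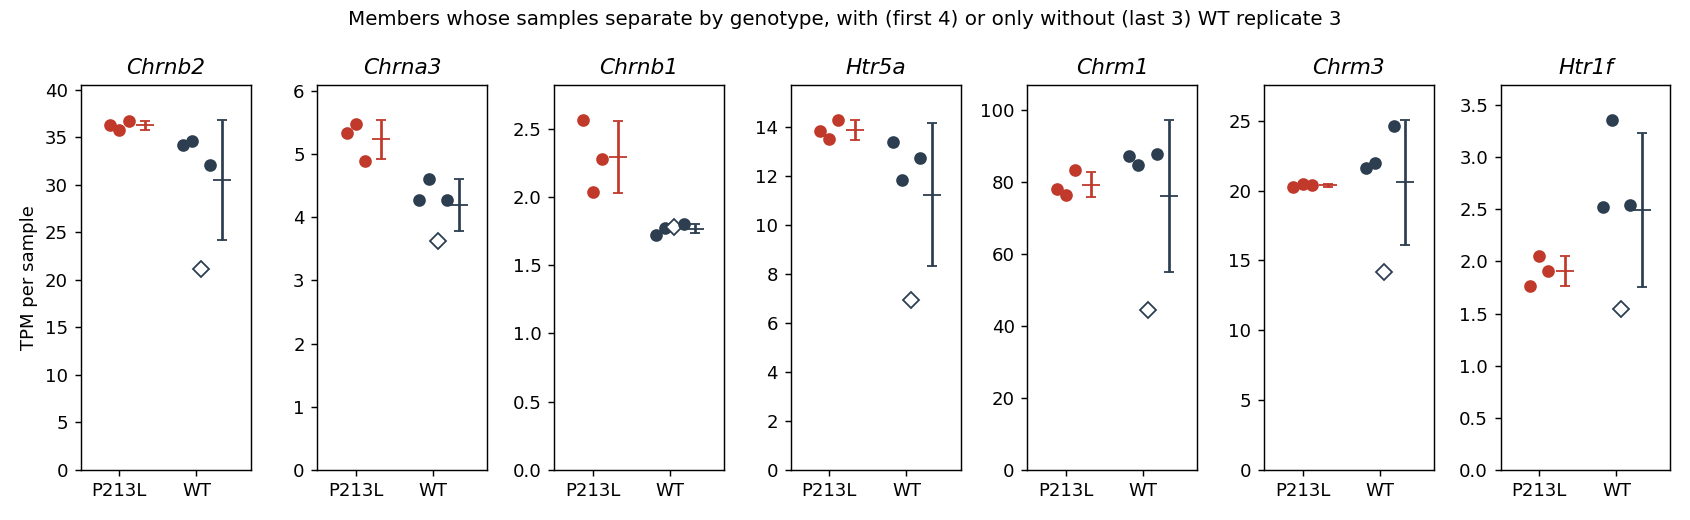
TPM per sample (vertical axes, each from 0) of 7 receptor genes in P213L (red) and WT (dark blue), with WT replicate 3 as an open diamond and the mean ± SD of all samples of a group beside its points. Chrnb2, Chrna3, Chrnb1 and Htr5a have all P213L points above all WT points, while Chrm1, Chrm3 and Htr1f have P213L points between WT replicate 3 and the other WT samples.

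Chrnb2 encodes the beta subunit that joins with Chrna4 in the most common high-affinity nicotinic receptor of the brain. It stood at 36.3, 35.7 and 36.7 TPM in the 3 P213L samples and at 34.2, 34.6, 21.2 and 32.0 TPM in WT replicates 1 to 4. The P213L samples lay within about 1 TPM of each other and just above the highest WT sample. Its fold change over WT was 0.27 ± 0.18 on the log2 scale (SE; adjusted p = 0.827 in limma), and 0.11 ± 0.058 without WT replicate 3, so the difference did not pass the threshold in either fit. The gene lies on mm10 chromosome 3, from 89746195 to 89764632 on the minus strand, and 16.3% of its exon bases lie over exons of Adar on the other strand. The strand setting of the counting is not given in the sources used here, so reads of the pair may not be told apart, and Adar stood at 56.4 to 60.4 TPM in P213L, 56.5 to 57.3 TPM in WT replicates 1, 2 and 4 and 15.7 TPM in WT replicate 3. The same limit holds for Adra1d, Adrb3, Chrm1, Chrm2, Chrna10, Drd5, Htr1b and Htr2b. Gene models on the other strand cover from 2.35% (Chrm2) to 48.6% (Drd5) of their exon bases.

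Chrna3 encodes an alpha subunit best known from autonomic ganglia and the medial habenula. It had 5.33, 5.49 and 4.90 TPM in P213L and 4.28, 4.60, 3.63 and 4.28 TPM in WT replicates 1 to 4, a difference of 0.29 ± 0.13 on the log2 scale (SE; adjusted p = 0.827 in limma). Leaving out any 1 library kept this value between 0.23 and 0.34. On chromosome 9 it sits next to Chrna5 and Chrnb4, with which it forms a conserved cluster, and the neighbours overlapped between genotypes. Chrna5, an accessory subunit, had 4.05, 4.45 and 5.09 TPM in P213L and 3.60, 5.12, 3.93 and 5.25 TPM in WT (log2 fold change 0.025 ± 0.17, and -0.025 ± 0.16 without WT replicate 3, SE). Chrnb4, the usual partner of Chrna3 in ganglia, held 0.124 to 0.322 TPM in P213L and 0.163 to 0.298 TPM in WT, or about 9 to 25 counted units per library in P213L and 10.5 to 21 in WT.

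Chrnb1 encodes the beta subunit of the muscle nicotinic receptor. Its values were 2.57, 2.03 and 2.28 TPM in P213L and 1.72, 1.77, 1.78 and 1.80 TPM in WT, and WT replicate 3 lay within the other WT samples here. Over WT this came to 0.30 ± 0.15 on the log2 scale (SE; adjusted p = 0.827 in limma) with all samples and 0.30 ± 0.13 without WT replicate 3. Of its muscle partners, 2 were scarcely detected and 2 were below 1 TPM in all samples. Chrnd was listed at 0 in all samples except WT replicate 2, with 1 counted unit, and Chrng at 0 in all samples except WT replicates 2 and 3, with 3 units and 1 unit. Chrna1 had 0.515 to 0.783 TPM in P213L and 0.656 to 0.752 TPM in WT, and Chrne, the subunit of the adult muscle receptor, 0.790, 0.809 and 0.935 TPM in P213L and 0.828, 0.524, 0.260 and 0.341 TPM in WT. The P213L values of Chrne lay near WT replicate 1 and above the other WT samples. Of 8 markers of skeletal muscle, 4 stayed under 1 TPM in all samples, the muscle creatine kinase Ckm was at most 0.0362 TPM, and the list summed to 26.9 to 30.5 TPM in P213L and 28.4 to 42.1 TPM in WT.

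Htr5a encodes a Gi-coupled serotonin receptor of forebrain neurons. It was measured at 13.8, 13.5 and 14.3 TPM in P213L and at 13.4, 11.8, 6.94 and 12.7 TPM in WT. P213L replicate 2 and WT replicate 1 were nearly level, and WT replicate 3 was low. On the log2 scale the difference was 0.33 ± 0.22 (SE; adjusted p = 0.827 in limma), and 0.13 ± 0.074 without WT replicate 3.

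The promoter windows of these 4 genes are printed because their samples separated by genotype in the same direction. Each runs from 250 bases before to 50 bases after the RefSeq start (GRCm38.p6), 5′ to 3′ on the gene's strand, and capitals mark the GC box GGGCGG on either strand, a motif that Sp1 factors are known to bind. The windows lie at chr9:55026513-55026812 (minus strand) for Chrna3, chr11:69795888-69796187 (minus) for Chrnb1, chr3:89764583-89764882 (minus) for Chrnb2 and chr5:27841697-27841996 (plus) for Htr5a.
Chrna3: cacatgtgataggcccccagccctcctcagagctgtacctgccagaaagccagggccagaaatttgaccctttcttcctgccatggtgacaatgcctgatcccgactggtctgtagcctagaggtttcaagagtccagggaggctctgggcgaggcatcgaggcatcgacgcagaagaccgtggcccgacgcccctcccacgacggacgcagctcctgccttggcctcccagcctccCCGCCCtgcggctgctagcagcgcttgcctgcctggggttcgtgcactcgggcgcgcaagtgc
Chrnb1: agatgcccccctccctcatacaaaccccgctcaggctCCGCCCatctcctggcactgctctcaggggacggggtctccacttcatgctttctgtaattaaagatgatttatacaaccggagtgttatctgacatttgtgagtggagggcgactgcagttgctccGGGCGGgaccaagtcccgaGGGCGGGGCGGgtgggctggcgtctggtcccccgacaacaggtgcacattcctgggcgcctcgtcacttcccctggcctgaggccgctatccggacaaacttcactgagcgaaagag
Chrnb2: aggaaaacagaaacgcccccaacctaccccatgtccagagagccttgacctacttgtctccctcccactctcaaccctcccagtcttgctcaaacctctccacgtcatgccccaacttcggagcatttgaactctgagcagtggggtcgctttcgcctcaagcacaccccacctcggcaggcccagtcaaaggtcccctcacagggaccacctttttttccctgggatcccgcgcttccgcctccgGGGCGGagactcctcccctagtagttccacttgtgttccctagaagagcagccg
Htr5a: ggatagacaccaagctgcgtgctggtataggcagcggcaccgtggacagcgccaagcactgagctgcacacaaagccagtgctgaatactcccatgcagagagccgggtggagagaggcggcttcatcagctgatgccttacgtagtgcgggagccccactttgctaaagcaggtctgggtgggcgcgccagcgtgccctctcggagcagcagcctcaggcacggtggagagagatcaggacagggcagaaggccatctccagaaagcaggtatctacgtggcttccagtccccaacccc

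Chrnb1 holds 4 matches, of which a pair overlaps by a base, Chrna3 and Chrnb2 hold 1 each and Htr5a holds 0. The motif is in 35.7% of all 32851 promoter windows of that length and in 51.3% of the 39 windows of members. Other patterns searched were the E-box CAGCTG and its looser form CANNTG (N, any base). CAGCTG is in 16.3% of all windows and 20.5% of member windows, with 1 match in Htr5a. CANNTG goes the other way, at 72.3% of all windows and 59.0% of member windows. The 4 windows have 59.0 to 64.3% G and C, against a median of 57.3% over the windows of members and 52.7% over all windows. A match describes letters only, and no match says only that these letters are not in the window.

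Among the other nicotinic subunits, Chrna4, the alpha partner of Chrnb2, was the highest at 46.7, 42.0 and 44.7 TPM in P213L and 45.8, 46.3, 24.0 and 41.5 TPM in WT. The genotypes overlapped, with a log2 fold change of 0.22 ± 0.23, and -0.0017 ± 0.070 without WT replicate 3 (SE). The ratio of Chrna4 to Chrnb2 was 1.18 to 1.29 in P213L and 1.13 to 1.34 in WT, so the genotypes overlapped. WT replicate 3 had the lowest ratio, and the 3 other WT samples had 1.30 to 1.34, above the highest P213L sample by a small margin. Chrnb2 had been singled out as separated in these same samples, so the ratio is no separate evidence, and it was not tested. Chrna7, which forms fast calcium-permeable receptors of a single subunit, had 13.8, 14.2 and 14.7 TPM in P213L and 13.8, 14.3, 2.60 and 15.7 TPM in WT. Its log2 fold change was 0.54 ± 0.55 with all samples and -0.033 ± 0.075 without WT replicate 3 (SE), so the size of the first value rests on that library. Chrna2, a subunit of deep-layer interneurons, ran from 1.15 to 1.55 TPM in P213L and 0.942 to 1.17 TPM in WT. Chrna6 and Chrnb3, which pair in receptors on dopamine neurons and, for Chrnb3, also in the habenula, stayed at 0.305 to 0.565 TPM and 0.0714 to 0.169 TPM in P213L and at 0.452 to 0.572 TPM and 0.138 to 0.220 TPM in WT. The cochlear hair cell subunits Chrna9 and Chrna10 had at most 4 counted units per library in P213L and 6 in WT.

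The muscarinic receptors showed the highest single value of the set in Chrm1, the Gq-coupled receptor of cortical pyramidal neurons, at 78.0, 76.4 and 83.2 TPM in P213L and 87.2, 84.8, 44.3 and 87.8 TPM in WT. Each P213L sample lay between WT replicate 3 and the other WT samples. Its log2 fold change was 0.11 ± 0.24 with all samples and -0.13 ± 0.056 without WT replicate 3 (SE; adjusted p = 0.887 and 0.580 in limma). Chrm3, of the same coupling, held 20.3, 20.5 and 20.4 TPM in P213L and 21.6, 22.0, 14.2 and 24.6 TPM in WT, with 0.014 ± 0.19 and -0.15 ± 0.070 for the same fold changes (SE). Both genes thus changed sign with 1 library, and neither sign passed the test in these fits; with sample weights Chrm3 passed at -0.22 ± 0.057 (SE; adjusted p = 0.0267 in limma).

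Chrm4, a Gi-coupled receptor that is abundant in striatal neurons as well as cortex, stood at 50.5, 43.4 and 48.7 TPM in P213L and 51.8, 42.1, 15.95 and 36.5 TPM in WT. WT replicate 1 was the highest of all. Over WT it came to 0.49 ± 0.36 on the log2 scale, and 0.14 ± 0.13 without WT replicate 3 (SE). Markers of striatal neurons summed to 707 to 748 TPM in P213L and to 888, 699, 790.5 and 710.2 TPM in WT replicates 1 to 4, and their part in the Chrm4 values was not tested. Chrm4 made up 28.5 to 31.8% of muscarinic TPM in P213L and 20.2 to 30.4% in WT. Chrm2, the Gi-coupled receptor known as a presynaptic brake on acetylcholine release, ran from 6.71 to 9.06 TPM in P213L and 3.97 to 9.30 TPM in WT. Chrm5 was lowest of the class at 2.82 to 4.49 TPM in P213L and 0.464 to 3.54 TPM in WT.

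Of the serotonin receptors, the Gs-coupled Htr7 was the most abundant, at 22.2, 23.9 and 23.8 TPM in P213L and 22.3, 19.4, 18.7 and 22.8 TPM in WT. The lowest P213L sample lay below the highest WT samples by less than 1 TPM. Its difference on the log2 scale was 0.16 ± 0.11 with all samples and 0.11 ± 0.080 without WT replicate 3 (SE; adjusted p = 0.827 and 0.660 in limma). Htr2c, a Gq-coupled receptor that also marks the choroid plexus, had 14.3, 19.1 and 16.8 TPM in P213L and 16.3, 21.6, 14.5 and 19.2 TPM in WT, with the highest value in WT replicate 2. That library held 1251 TPM of choroid plexus markers, against 9.82 to 11.5 TPM in P213L and 5.94 to 9.11 TPM in the other WT libraries. Ttr alone made up 1216 TPM of that sum. The other markers of the list were also highest in WT replicate 2, at 1.86 to 9.45 TPM each. Without WT replicate 2 the log2 fold change of Htr2c was 0.0039 ± 0.17, against -0.090 ± 0.17 with all samples (SE). It was 0.013 without P213L replicate 1 and -0.18 without WT replicate 3, and the part of the choroid plexus markers in the Htr2c values was not tested.

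Htr1a, the Gi-coupled autoreceptor of raphe neurons that cortical pyramidal neurons also make, had 13.6, 14.3 and 14.8 TPM in P213L and 14.3, 17.9, 9.05 and 15.8 TPM in WT. The groups overlapped, and its log2 fold change was 0.037 ± 0.22, and -0.16 ± 0.093 without WT replicate 3 (SE). Htr1f, another Gi-coupled receptor, was singled out after its values were seen: it had 1.76, 2.05 and 1.91 TPM in P213L and 2.53, 3.36, 1.54 and 2.54 TPM in WT. WT replicate 3 was the lowest sample and the other WT samples the highest. Its difference was -0.28 ± 0.23 on the log2 scale with all samples and -0.45 ± 0.15 without WT replicate 3 (SE; adjusted p = 0.827 and 0.516 in limma). The second p is the smallest of a member in that fit. Htr2a, the Gq-coupled receptor on which psychedelic drugs act, had 10.3 to 12.7 TPM in P213L and 8.85 to 14.97 TPM in WT, and its ratio to Htr2c was 0.659 to 0.718 in P213L and 0.609 to 0.707 in WT.

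The remaining serotonin receptors overlapped between genotypes. Htr1b, a presynaptic Gi-coupled receptor, was level at 11.3 ± 0.456 TPM in P213L and 11.3 ± 1.23 TPM in WT (SD, n = 3 and 4). Htr1d, its close relative, averaged 5.49 ± 0.853 TPM in P213L and 4.41 ± 0.697 TPM in WT. The channel subunit Htr3a, made by interneurons of the caudal ganglionic eminence, averaged 6.53 ± 0.754 TPM in P213L and 6.92 ± 0.419 TPM in WT, and WT replicate 3 was not low there, at 6.69 TPM. Its partner Htr3b had no more than 6 counted units per library in P213L and 5 in WT. The Gs-coupled Htr6 and Htr4 averaged 8.48 ± 1.26 and 1.98 ± 0.393 TPM in P213L, and 7.04 ± 3.01 and 1.47 ± 0.458 TPM in WT. WT replicate 3 was the lowest sample for both, at 4.01 and 0.823 TPM, and the other WT samples had 6.12 to 11.2 and 1.47 to 1.85 TPM. For Htr6 the highest sample was WT replicate 1, at 11.2 TPM, the library with the highest sum of striatal markers, and striatal neurons are known to make Htr6; the part of those markers in the Htr6 values was not tested. Htr5b averaged 5.25 ± 0.490 TPM in P213L and 5.05 ± 0.666 TPM in WT, and Htr2b 0.624 ± 0.150 TPM in P213L and 0.417 ± 0.229 TPM in WT.

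Adrenergic receptors were led by Adra2a, the Gi-coupled receptor that restrains noradrenaline release, at 35.0, 34.4 and 37.8 TPM in P213L and 38.9, 37.4, 26.0 and 33.9 TPM in WT. Adra2c, of the same coupling, had 24.1, 22.7 and 30.2 TPM in P213L and 24.6, 23.2, 23.7 and 19.0 TPM in WT, and Adrb1, the main Gs-coupled beta receptor of cortical neurons, 22.6, 23.5 and 24.3 TPM in P213L and 24.4, 24.4, 20.1 and 23.1 TPM in WT. All 3 overlapped between genotypes. Their log2 fold changes were 0.084 ± 0.15, 0.18 ± 0.14 and 0.031 ± 0.11 (SE), and adjusted p in limma ran from 0.827 to 0.931. Without WT replicate 3 they were -0.038 ± 0.073, 0.20 ± 0.13 and -0.030 ± 0.062 (SE), so the signs of Adra2a and Adrb1 turned. Of the Gq-coupled receptors, Adra1b averaged 23.6 ± 0.714 TPM in P213L and 22.0 ± 3.87 TPM in WT and Adra1d 14.02 ± 3.59 TPM in P213L and 12.7 ± 3.71 TPM in WT (SD, n = 3 and 4). WT replicate 3 was the lowest sample for both, at 17.1 and 7.31 TPM. The other WT samples had 21.2 to 26.3 TPM of Adra1b and 13.6 to 15.8 TPM of Adra1d, so the lower WT means rest on that library. Adra1a ran from 2.99 to 3.80 TPM in P213L and from 3.19 to 4.29 TPM in WT replicates 1, 2 and 4, and stood at 0.642 TPM in WT replicate 3. Adrb3 and Adra2b stayed near or below 1 TPM, with 0.715 to 1.40 and 0.521 to 0.825 TPM in P213L and 0.604 to 0.863 and 0.480 to 0.704 TPM in WT.

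The 3 dopamine receptors of the set were scarce. Drd1 and Drd2, which the choice of symbols left out, were not: they had 26.9 to 29.5 and 25.0 to 25.6 TPM in P213L. In WT they had 22.0 to 30.1 and 21.0 to 31.0 TPM. Drd5, the Gs-coupled receptor among the 3 of the set, had 0.733, 1.25 and 0.957 TPM in P213L and 0.687, 1.24, 1.09 and 1.38 TPM in WT (log2 fold change -0.11 ± 0.23, SE; adjusted p = 0.887 in limma), and 48.6% of its exon bases lie over a gene model on the other strand. Drd3 had 0.585, 0.830 and 1.01 TPM in P213L and 0.863, 0.752, 0.0802 and 0.590 TPM in WT, where WT replicate 3 amounts to about 2.5 counted units. Drd4 had 0.364, 0.508 and 0.312 TPM in P213L and 0.507, 0.468, 0.406 and 0.341 TPM in WT. The last 2 genes fell below the mean of 1 TPM and were not tested in limma.

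**Figure D3:**
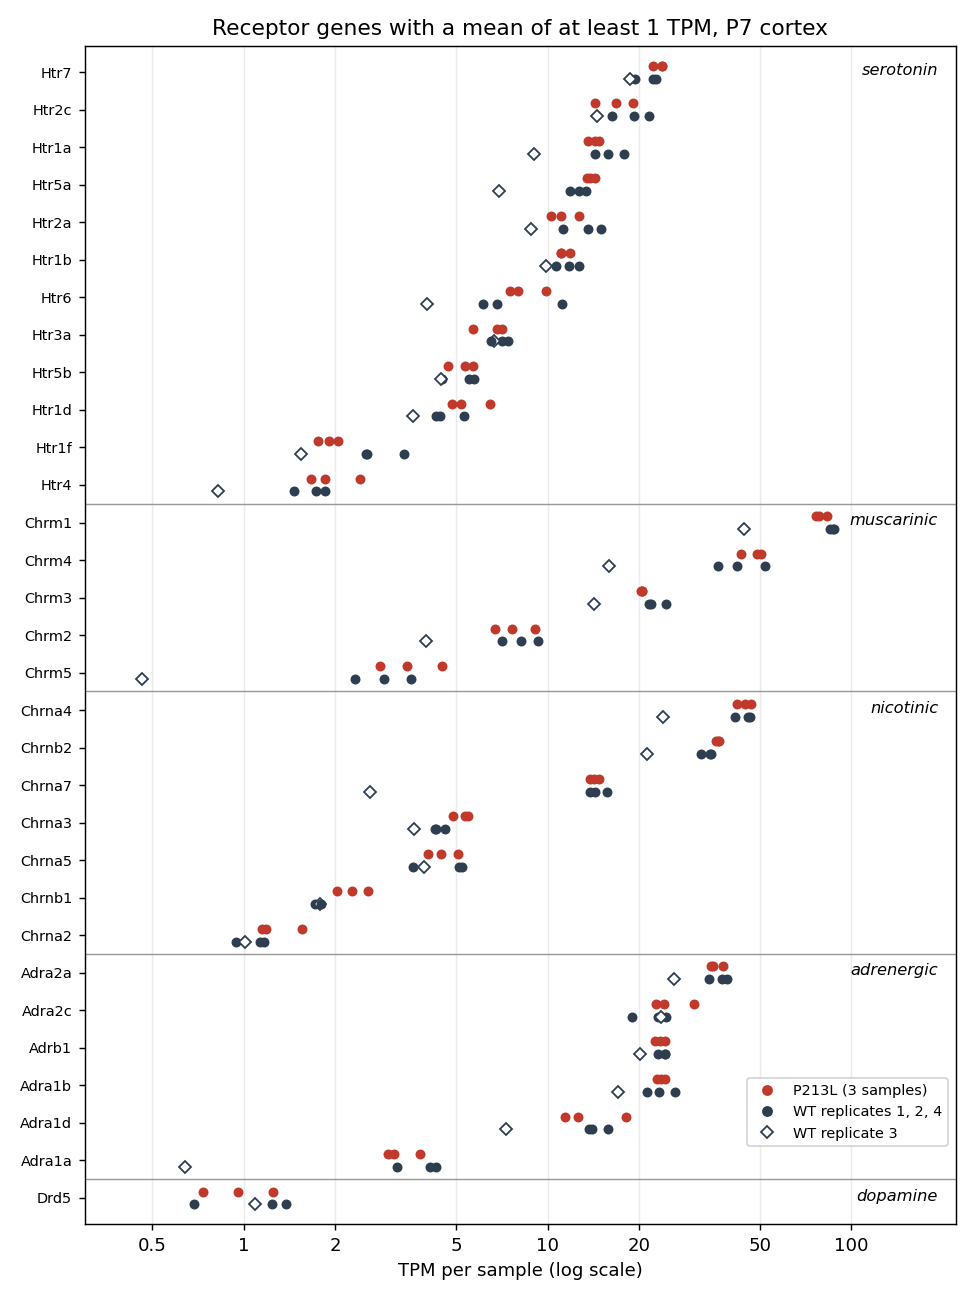
TPM per sample on a log axis for 31 of the 32 tested receptor genes, by class and by mean level, with P213L (red) above WT (dark blue) in each row and WT replicate 3 as an open diamond. Most rows show overlapping groups with WT replicate 3 to the left of the other points, as for Chrna7 at 2.60 TPM. WT replicate 3 is not the leftmost point for Adra2c, Chrna2, Chrna5, Chrnb1, Drd5, Htr2c and Htr3a.

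How far WT replicate 3 lay from the other WT samples differed between members. Of the 32 tested, 29 were below the median of the other 3 WT samples and 3 above, with a median difference of -0.54 on the log2 scale, beside -0.29 over all rows tested. Adra1a, Chrm5 and Chrna7 had 0.157, 0.160 and 0.182 of the TPM of the other WT samples. At the other end Adra2c had 1.02 times and Chrnb1 1.01 times their TPM.

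By coupling, the Gq-coupled receptors summed to 165, 171 and 183 TPM in P213L and 185, 186, 107 and 190.0 TPM in WT. The Gi-coupled ones summed to 165, 158 and 173 TPM in P213L and 170.3, 164, 102 and 146 TPM in WT, and the Gs-coupled ones to 58.2, 60.2 and 63.9 TPM in P213L and 61.9, 55.9, 47.3 and 57.2 TPM in WT. Ion channel subunits summed to 119, 114 and 119 TPM in P213L and 114.8, 117, 66.8 and 110.2 TPM in WT. For Gq alone all P213L sums lay between WT replicate 3 and the other WT samples, and Chrm1 and Chrm3 made up most of that class.

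**Figure D4:**
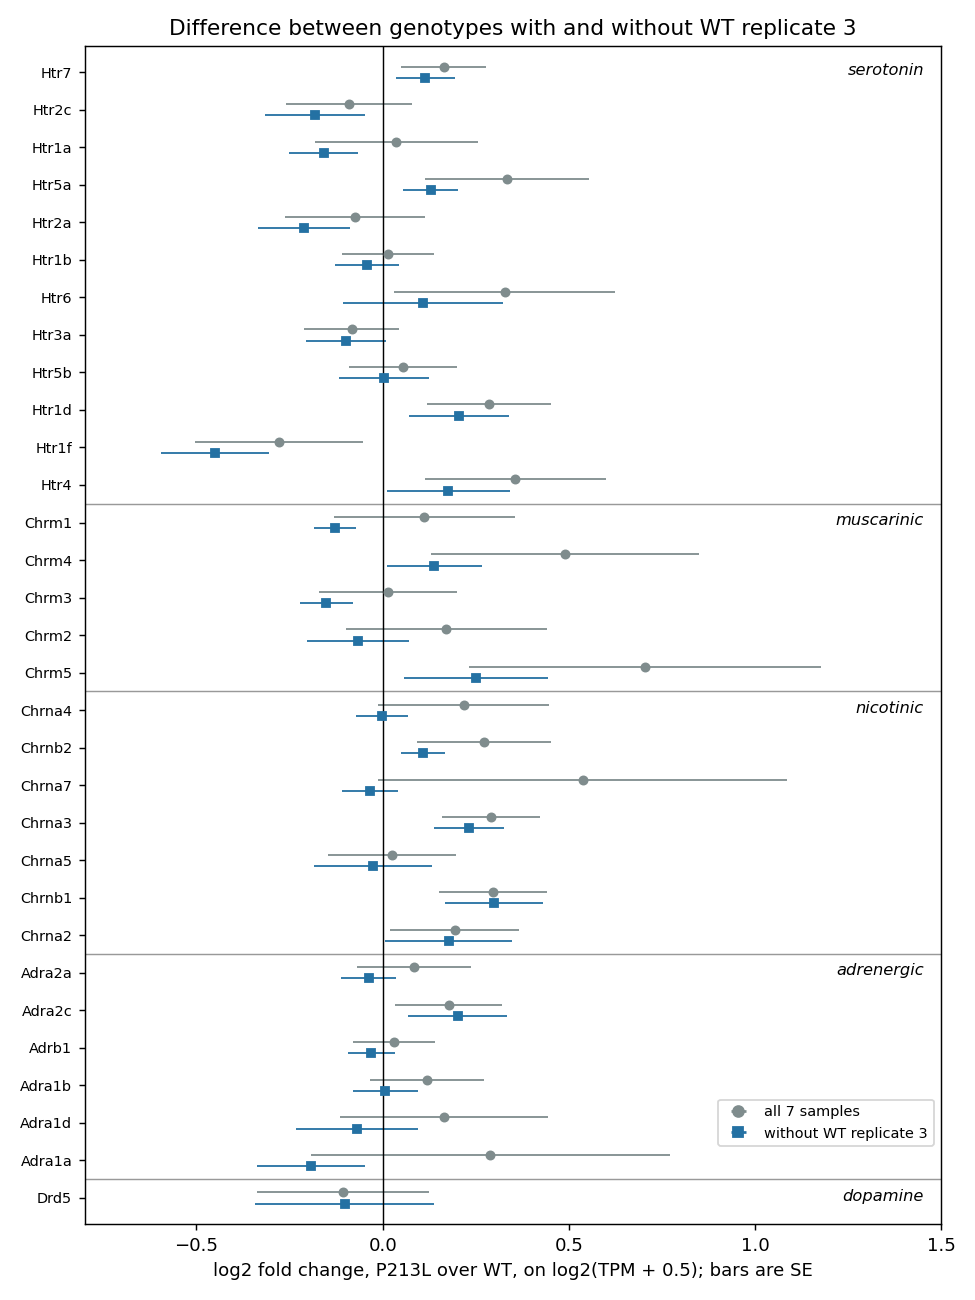
Log2 fold change of P213L over WT with its SE (horizontal axis) for 31 of the 32 tested receptor genes, with all 7 samples (grey circles, upper) and without WT replicate 3 (blue squares, lower). Chrna7 moves with the choice of samples, at 0.54 and -0.033, while Chrnb1 stays at 0.30 in both.

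Genes that supply or carry the signal of these transmitters were read from the same fit. For serotonin, 0 of 9 tested genes of supply and clearance passed. Tph2, the rate-limiting enzyme of neuronal serotonin synthesis, had 2.15, 2.09 and 2.36 TPM in P213L and 2.55, 2.58, 2.94 and 2.49 TPM in WT. It was the 1 gene of these 9 separated by genotype, on the lower side, as were 2.75% of all rows. Its log2 fold change was -0.22 ± 0.14, and -0.17 ± 0.12 without WT replicate 3 (SE). Slc29a4, a low-affinity monoamine transporter, had a log2 fold change of 0.42 ± 0.25 and Aldh2, which oxidises amine aldehydes, 0.21 ± 0.14 (SE). Without WT replicate 3 these were 0.19 ± 0.12 and 0.13 ± 0.10. For catecholamines 0 of 7 passed, with Dbh, which makes noradrenaline, at -0.39 ± 0.22, Pts at -0.19 ± 0.12 and Th, the first enzyme of the pathway, at 0.30 ± 0.22. Without WT replicate 3 Dbh had -0.44 ± 0.22, Pts -0.12 ± 0.079 and Th 0.18 ± 0.18. For acetylcholine 0 of 7 passed, with Slc18a3, the vesicular transporter, at 0.32 ± 0.16 and Acly, which supplies acetyl-CoA, at 0.30 ± 0.20. Without WT replicate 3 Slc18a3 stayed at 0.32 ± 0.16 and Acly had 0.11 ± 0.063. Colq, the collagen tail that anchors acetylcholinesterase, had 0.979, 1.08 and 0.963 TPM in P213L and 1.59, 1.601, 1.31 and 1.46 TPM in WT, with no overlap and a log2 fold change of -0.40 ± 0.16 (SE; adjusted p = 0.827 in limma). Of the 7 tested genes of this list, Colq was the 1 separated on the lower side and Acly the 1 on the higher side. Over all rows 2.75% were separated lower and 5.94% higher.

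Of the genes that assemble or modulate nicotinic receptors, 0 of 14 passed, and 3 were separated on the lower side, as were 2.75% of all rows. Among these Vsnl1, a calcium sensor that promotes surface expression of Chrna4 receptors, had 505, 729 and 678 TPM in P213L and 731, 873, 770.1 and 749 TPM in WT, and Ly6e, a prototoxin relative, 82.8, 77.1 and 77.8 TPM in P213L and 89.3, 83.3, 104 and 87.3 TPM in WT. Lypd6b, another relative of the prototoxins, had 38.1 to 39.3 TPM in P213L and 39.7 to 52.9 TPM in WT. Agrn, the organizer of the neuromuscular junction, had a log2 fold change of 0.43 ± 0.29, and 0.15 ± 0.10 without WT replicate 3 (SE). Of 32 G protein subunits and effectors 0 passed, with 24 positive and 8 negative and a median of 0.12, which was -0.04 without WT replicate 3. The smallest p there belonged to the cyclases Adcy6 (0.56 ± 0.29) and Adcy3 (0.49 ± 0.36) and to Gnai2 (0.17 ± 0.11), and without WT replicate 3 these had 0.28 ± 0.10, 0.13 ± 0.092 and 0.11 ± 0.065 (SE). Gnai2 and Gnal were separated on the higher side, 2 of 32 beside 5.94% of all rows, and Gnal had a log2 fold change of 0.35 ± 0.30 with all samples and 0.039 ± 0.048 without WT replicate 3 (SE). Of 14 genes of receptor desensitisation 0 passed. The receptor kinases Grk4 and Grk5 were separated on the higher side, as were 5.94% of all rows, at 3.83 to 3.996 and 18.8 to 20.02 TPM in P213L and 2.29 to 3.53 and 8.55 to 17.5 TPM in WT. Their log2 fold changes were 0.36 ± 0.16 and 0.42 ± 0.25 with all samples and 0.26 ± 0.11 and 0.18 ± 0.066 without WT replicate 3 (SE), while Rgs4, which shortens Gi and Gq signals, had a log2 fold change of -0.13 ± 0.10 (SE).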

How the data were processed

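Per the labels' protocols, TRIzol-extracted RNA went into stranded poly(A) libraries. The submitters' processing notes name HISAT2, HTSeq and mm10 with no version. The sources used here do not state the annotation, the gene lengths or the strand setting. Per the file headers, the authors deposited 1 TPM value for each gene in each sample, and each column sums to 1000000. TPM keeps no read total, so depth was estimated from the most frequent low value of TPM multiplied by exon-union length (GENCODE vM21, mm10), taken as 1 counted unit. Between 95.1 and 96.1% of low values were whole or half-integer multiples of that unit, to within 0.05.

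Samples were grouped by title. Rows averaging 1 TPM or more entered limma as log2(TPM + 0.5), in version 3.58.1 (R 4.3.3) with a mean-variance trend, two-sided, with Benjamini-Hochberg adjustment over all rows and a threshold of 0.05. The log2(TPM + 0.5) scale understates the change of low genes. The fit was tested on simulated data. Members and lists were chosen with earlier results of these data known. The rule for naming picked the 3 highest members of each class, members separated by genotype or with an unadjusted p under 0.05, and members that mark a neighbouring tissue. It also picked the 3 genes of each supply or signalling list with the smallest p. Their values are given per sample, as ranges or, for many of the list genes, as fold changes alone. The marker lists of excitatory neurons, interneurons, striatum, choroid plexus and skeletal muscle are given mainly as sums. Those of astrocytes, the oligodendrocyte lineage, microglia, vessels and meninges, and thalamus and habenula were also read and are not given. Alternatives were other pseudocounts, filters, scalings and variance models, the replicate number as a block and samples left out. Promoter sequences are from RefSeq (GRCm38.p6). Of the 47 members, 35 had one. The values of 1 member are not reported here, and it stays in the counts and sums. Tables and figures were made with pandas 2.3.3 and matplotlib 3.10.9 in Python 3.11.15.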

Additional observations from a re-analysis of the deposited data

Results flagged for a closer look

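In the group of 4 WT samples, 37 measures were examined for a sample far from the other 3: the 32 tested members and the summed TPM of each class. Chance picks out about 1 in 20 groups of this size. The sums hold the same genes, and all measures come from the same 4 libraries. The measures are therefore not independent, and that rate gives no number to expect among them. There were 5, all low values of WT replicate 3. Chrm1 stood at 44.3 TPM there and at 84.8 to 87.8 TPM in the other WT samples, and Chrna7 at 2.60 TPM and at 13.8 to 15.7 TPM. The summed TPM of the serotonin class was 89.3, against 122 to 127 in the other WT samples, that of the muscarinic class 78.9, against 159.9 to 170.0, and that of the nicotinic class 60.0, against 104 to 109.8.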

How the results depend on the processing

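In limma, 0 members and 0 genes passed an adjusted p of 0.05 under all alternatives except sample weights, where 3981 genes and 7 members passed, and where Adra2c (0.49), Chrm4 (0.34), Chrnb2 (0.17) and Chrm3 (-0.22) did so among the members followed. Of all rows 657 had an unadjusted p below 0.05 with all samples, and 1528 without WT replicate 3, 1574 without WT replicate 1, 266 without P213L replicate 1, 390 without P213L replicate 2 and 314 without P213L replicate 3. Separated by genotype were 4 members (all higher; 8.69% of all rows in either direction), and 2 with a filter at 5 TPM (2 higher; 8.49%), 2 with quantiles normalized (1 higher and 1 lower; 8.32%), 2 with median-of-ratios scaling, with or without the replicate block (2 higher; 8.49%), and 7 with WT replicates 2 and 3 left out (4 higher and 3 lower; 20% of all rows). With 1 sample left out they ranged from 4 to 7, with 7 without P213L replicate 1 (all higher; 13.1% of all rows), WT replicate 1 (all higher; 25%) or WT replicate 3 (4 higher and 3 lower; 14.2%). The median log2 fold change of the members stayed within 0.30 of its value throughout, and was -0.01 to 0.20 with 1 sample left out. Deviations of same-numbered samples from their group means correlated at 0.13, 0.17 and -0.10, and those of differently numbered samples at -0.24 to 0.12. The values for replicates 1 and 2 were thus the highest, but WT replicate 3 shifts the WT means, so whether samples were paired cannot be told from these values. The replicate block left 0 members called, with a median of 0.20, the same as without WT replicate 4, which has no P213L sample of its number. The split of all 32 members was 27 positive and 5 negative, 20 and 12 with median-of-ratios scaling, and 18 and 14 with sample weights. Among the 16 members followed one by one, signs turned on the log2 scale as below, none past the threshold except Chrm3 with sample weights. With median-of-ratios scaling Adrb1 had -0.052, Chrm3 -0.068 and Htr1a -0.044. With quantiles normalized Adra2a had -0.0019, Adrb1 -0.068, Chrm3 -0.087 and Htr1a -0.067. With mitochondrial genes removed Chrm3 had -0.012. With sample weights Chrm1 had -0.087, Chrm3 -0.22, Chrna7 -0.055 and Htr1a -0.13. With the replicate block and median-of-ratios scaling Adra2a had -0.018, Adra2c -0.0083, Adrb1 -0.073 and Htr1a -0.0052. With WT replicates 2 and 3 left out Adra2a had -0.024, Adrb1 -0.016, Chrm1 -0.14, Chrm3 -0.17, Chrna7 -0.048 and Htr1a -0.078. With 1 sample left out the ranges were -0.038 to 0.15 for Adra2a, -0.030 to 0.061 for Adrb1, -0.13 to 0.20 for Chrm1, -0.15 to 0.11 for Chrm3, -0.0017 to 0.31 for Chrna4, -0.033 to 0.76 for Chrna7, -0.24 to 0.018 for Drd5, -0.16 to 0.16 for Htr1a and -0.19 to 0.013 for Htr2c. The cause was not tested. Chrnd, Chrng, Htr3b, Chrna9 and Chrna10 had at most 6 counted units per library, and no difference was detectable at that depth.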

Other observations

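The antisense row Chrna1os, which the choice of symbols left out, was singled out after its values were seen. It had 1.85, 0.790 and 1.91 TPM in P213L and 2.50, 2.11, 2.16 and 2.67 TPM in WT, with no overlap, a log2 fold change of -0.56 ± 0.25 (SE) and a limma adjusted p of 0.827 over all rows. Of all rows tested, 2.75% were separated on the lower side. Chrna1, the gene on the other strand, overlapped between genotypes at 0.515 to 0.783 TPM in P213L and 0.656 to 0.752 TPM in WT.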
